A study of Mus musculus with 6 samples.

Results

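The genes described here are 48 mouse genes of the cell cycle and of DNA replication, chosen by symbol from a list of known replication, G1/S and mitotic genes and found in the counts of 55487 genes. They were measured by RNA-seq in 6 cultures of primary microglia, 3 Cre- and 3 Cre+, each sequenced as 1 library. The cells came from the cortex of P1-3 pups on a C57/Bl6J background that carried floxed Nr1d1 (Nr1d1 fl/fl), the gene of the nuclear receptor REV-ERBα. The Cre+ cultures also carried CAG::CreERT2, a Cre recombinase that enters the nucleus when 4-OHT is bound, and their Cre- littermates did not. All 6 cultures received 4-OHT at 1.5 μM, for 2 days by the labels and for a shorter time by the methods of the study. The CAG promoter is broadly active, so Cre was not restricted to microglia by its promoter, and all cells had been grown in serum and GM-CSF, a cytokine that supports myeloid cell growth, before they were shaken off the mixed glial layer. The comparison asks how transcripts of the cell cycle machinery differed between Cre+ and Cre- cultures, where Cre was meant to delete Nr1d1. All cultures were floxed and only Cre+ cultures held Cre. Effects of active Cre and of the loss of REV-ERBα therefore cannot be told apart.

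A dividing cell expresses its cycle genes in waves. In G1, D-type cyclins bind CDK4 or CDK6 and inactivate the pocket proteins, which frees E2F factors to induce the genes of DNA synthesis. The MCM helicase is loaded on origins, PCNA clamps the polymerases to DNA, and ribonucleotide reductase and thymidine kinase supply nucleotides. Later, cyclins A and B with CDK1 drive mitosis, and Top2a, Aurora kinases, kinesins and the anaphase-promoting complex separate the chromosomes. Microglia divide slowly in the adult brain and readily in neonatal culture.

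The 2 waves carry different sequence elements in their promoters, and 4 promoters of genes described below are shown for that reason. Sequences are from RefSeq (GRCm38.p6), the 250 bases before the start of the transcript, 5′ to 3′ along the gene. Capitals mark, on either strand, an E2F site (TTTCCCGC, TTTCGCGC, TTTGCCGC or TTTGGCGC), a cell cycle homology region or CHR (TTTGAA or TTCGAA) or a CCAAT box (CCAAT). Top2a (chr11:99024190-99024439, minus strand) and Ccnb2 (chr9:70421555-70421804, minus strand) are mitotic genes, and Rrm2 (chr12:24708004-24708253, plus strand) and Mcm6 (chr1:128359706-128359955, minus strand) are genes of DNA synthesis.
Top2a: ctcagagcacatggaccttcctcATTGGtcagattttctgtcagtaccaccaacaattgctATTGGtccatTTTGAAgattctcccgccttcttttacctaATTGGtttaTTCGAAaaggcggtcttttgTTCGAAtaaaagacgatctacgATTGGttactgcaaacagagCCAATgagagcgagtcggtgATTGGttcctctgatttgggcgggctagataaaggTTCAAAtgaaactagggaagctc
Ccnb2: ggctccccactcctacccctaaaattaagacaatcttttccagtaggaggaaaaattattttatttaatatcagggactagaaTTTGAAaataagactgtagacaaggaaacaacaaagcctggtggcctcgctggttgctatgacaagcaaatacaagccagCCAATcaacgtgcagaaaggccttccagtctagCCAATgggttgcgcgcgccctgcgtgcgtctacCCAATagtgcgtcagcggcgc
Rrm2: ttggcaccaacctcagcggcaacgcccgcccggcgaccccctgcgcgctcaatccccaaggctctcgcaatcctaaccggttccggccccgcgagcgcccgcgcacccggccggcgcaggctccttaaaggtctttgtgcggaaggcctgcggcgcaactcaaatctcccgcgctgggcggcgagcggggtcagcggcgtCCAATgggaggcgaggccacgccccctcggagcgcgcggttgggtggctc
Mcm6: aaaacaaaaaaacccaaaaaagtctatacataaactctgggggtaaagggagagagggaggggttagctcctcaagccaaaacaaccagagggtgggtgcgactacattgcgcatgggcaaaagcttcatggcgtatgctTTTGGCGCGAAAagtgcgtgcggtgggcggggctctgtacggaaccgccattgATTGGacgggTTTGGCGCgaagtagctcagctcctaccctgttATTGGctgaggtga
The Top2a and Ccnb2 windows hold CCAAT boxes and CHR elements and no E2F site of these forms. The Mcm6 window holds E2F sites and CCAAT boxes, and the Rrm2 window holds a CCAAT box alone.

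The same search covered the 300 bases around each start (250 before and 50 after) for the 37 of the 48 genes with an entry in the table, which had 41 promoters. An E2F site was present in 24.4% of these promoters and in 2.26% of the 32851 promoters of the table. A CHR was present in 41.5% against 19.2%, and a CCAAT box in 75.6% against 37.4%. The S-phase and mitotic genes had different counts of these elements, without a test. Of the 20 promoters of S-phase genes, 8 had an E2F site and 4 a CHR, whereas of the 16 promoters of mitotic genes 1, that of Cdk1, had an E2F site and 12 had a CHR. The E-box CACGTG, bound by the clock factors CLOCK and BMAL1, was in 1 of the 41 promoters (Tyms), against 7.15% of all promoters. The REV-ERB/ROR half-site TAGGTCA was in 1 as well (Mcm2), against 2.61% of all promoters. These are matches of letters in a short window, and binding was not measured. The 17 genes with a CHR had a median difference between Cre+ and Cre- of 0.14 (mean log2(CPM + 0.5)), with 12 higher in Cre+. The 20 genes without a CHR had a median of 0.08, with 13 higher. The 10 genes with an E2F site had a median of -0.01, with 4 higher. The 27 genes without an E2F site had a median of 0.15, with 21 higher. Cdk1, Mcm7 and E2f2 hold both elements. Whether these differ was not tested.

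The libraries held between 87545868 and 110909129 counts on genes. Genes with a count numbered 35166, 32587 and 33634 in Cre- and 30677, 29941 and 30096 in Cre+ cultures 1, 2 and 3. The number was lower in every Cre+ library, and its bearing on genes of low count was not tested. Levels are in CPM, counts relative to the library total after TMM scaling. Where 4 or more libraries exceeded 1 CPM, a gene entered the quasi-likelihood test of edgeR, with Benjamini-Hochberg adjustment over all 11429 such genes. At an adjusted p of at most 0.05, 579 genes were called (5.07%), 286 higher (2.50%) and 293 lower (2.56%) in Cre+. The targeted gene Nr1d1 was at 2.35, 1.20 and 1.64 CPM in Cre- and at 1.00, 0.945 and 1.08 CPM in Cre+ cultures 1, 2 and 3. Its groups did not overlap, and the difference was not called (log2 fold change -0.77, adjusted p = 0.0945 by edgeR) except without Cre- culture 2 (-0.98, adjusted p = 0.0414). Without Cre- culture 1 it was -0.50 (adjusted p = 0.313). The count takes in the exons that Cre leaves in place as well as those it removes. Nr1d1 also shares 263 of its 3077 exonic bases with Thra on the other strand, which the unstranded kit does not separate. The microglial markers Csf1r (426 to 487 CPM in Cre- and 453 to 476 CPM in Cre+) and Trem2 (1573 to 1657 and 1585 to 1655 CPM) were abundant and overlapped between the groups. Itgam, another microglial marker, was at 101, 107 and 103 CPM in Cre- and at 118, 121 and 114 CPM in Cre+, and was called higher (log2 fold change 0.18, adjusted p = 0.0463). Cx3cr1, at 9.05, 12.2 and 7.45 CPM against 13.3, 11.7 and 13.8 CPM, was not called (0.44, adjusted p = 0.113), and neither was Aif1 (-0.09, adjusted p = 0.865). P2ry12 and Tmem119, which mark microglia in the intact brain, were low (at most 1.03 and 3.55 CPM). Defining markers of other cells were near 0, with Gfap at most 0.397, Olig2 at most 0.0182, Cldn5 at most 0.046 and Col1a1 at most 0.885 CPM. The 8 astrocyte markers summed to between 44.3 and 48.2 CPM in Cre- and between 42.6 and 48.6 CPM in Cre+, mostly Aldoc and Aldh1l1. The 8 oligodendrocyte lineage markers summed to between 73.4 and 83.5 CPM and between 70.5 and 75.0 CPM, mostly Cspg4 and Mbp, and the 6 endothelial markers to between 20.9 and 22.9 CPM and between 24.3 and 27.9 CPM, mostly Flt1, which was called higher. The 8 fibroblast and mural markers summed to between 1.84 and 2.83 CPM in Cre- and to between 0.972 and 1.23 CPM in Cre+. Of these 8, 5 were lower in every Cre+ library, against 17.1% of a wider set of 19507 genes described below. That set holds 6 of the 8. Genes of low count lay lower in Cre+ in general, with a median log2 fold change of -0.20 over all genes without a filter. The 7 neuronal markers summed to between 2.91 and 3.86 CPM and to between 2.07 and 2.17 CPM. Of these 7, 3 were lower in every Cre+ library. The wider set holds 6 of the 7, of which 1 was called lower, against 435 of its 19507 genes. The part of these other cells in the results below was not tested.

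Across all 48 genes, the transcripts that differed were mostly higher in Cre+. Of the 48, 35 passed the expression filter and 13 did not. The 13 were Cdc6, E2f8, Ccne2, Ccna2, Bub1, Plk1, Cdc20, Ube2c, Kif11, Cenpf, Foxm1, Mybl2 and Ezh2. In the test, 4 of the 35 rose in Cre+ (Ccnd1, Ccnd2, Rrm2 and Top2a) and 0 fell, and at an unadjusted p under 0.05 the numbers were 11 higher (31.4%, against 9.69% of all tested genes) and 1 lower (2.86%, against 9.46%). As a share, 11.4% of the tested genes were called higher, against 2.50% of all tested genes. The groups did not overlap for 13 of the 35 in the direction of Cre+ (37.1%, against 12.3% of all genes) and for 1, Ccnd3, in the direction of Cre- (2.86%, against 11.7%). Of the 35, 24 had a log2 fold change above 0 (68.6%, against 50.6% of all genes), with a median of 0.13, and 0.00 over all genes. Mki67, Ccnb2, Nusap1 and Ccne1 passed the filter with 4 libraries, so counts over tested genes depend on it. A wider set of 19507 genes (edgeR's filterByExpr) holds all 48. In it, 18 of the 48 were higher in every Cre+ library (37.5%, against 8.44% of the wider set) and 1 was lower (2.08%, against 17.1%), and 6 were called higher, with Tk1 and Ube2c added to the 4 (12.5%, against 1.99%). There, 40 of the 48 had a log2 fold change above 0, against 47.9% of the wider set. DESeq2 called 5 of the 35 higher, with Tk1 added (3.60% of all genes), and 1, Ccnd3, lower (4.15%). limma's voomWithQualityWeights called 3 higher, without Rrm2 (2.44% of all genes), the fit with the replicate number as a block called 5 higher, with Ccnb2 added (1.79%), and the fit without any filter called 9 higher (1.94%). With 3 cultures a group, an exact permutation test of 1 gene cannot give a p below 0.1. The p-values of the fit set the group difference against the spread between these cultures, estimated with information shared across all tested genes. In bulk RNA, a larger share of cycling cells and more of a transcript per cycling cell cannot be told apart.

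**Figure D1:**
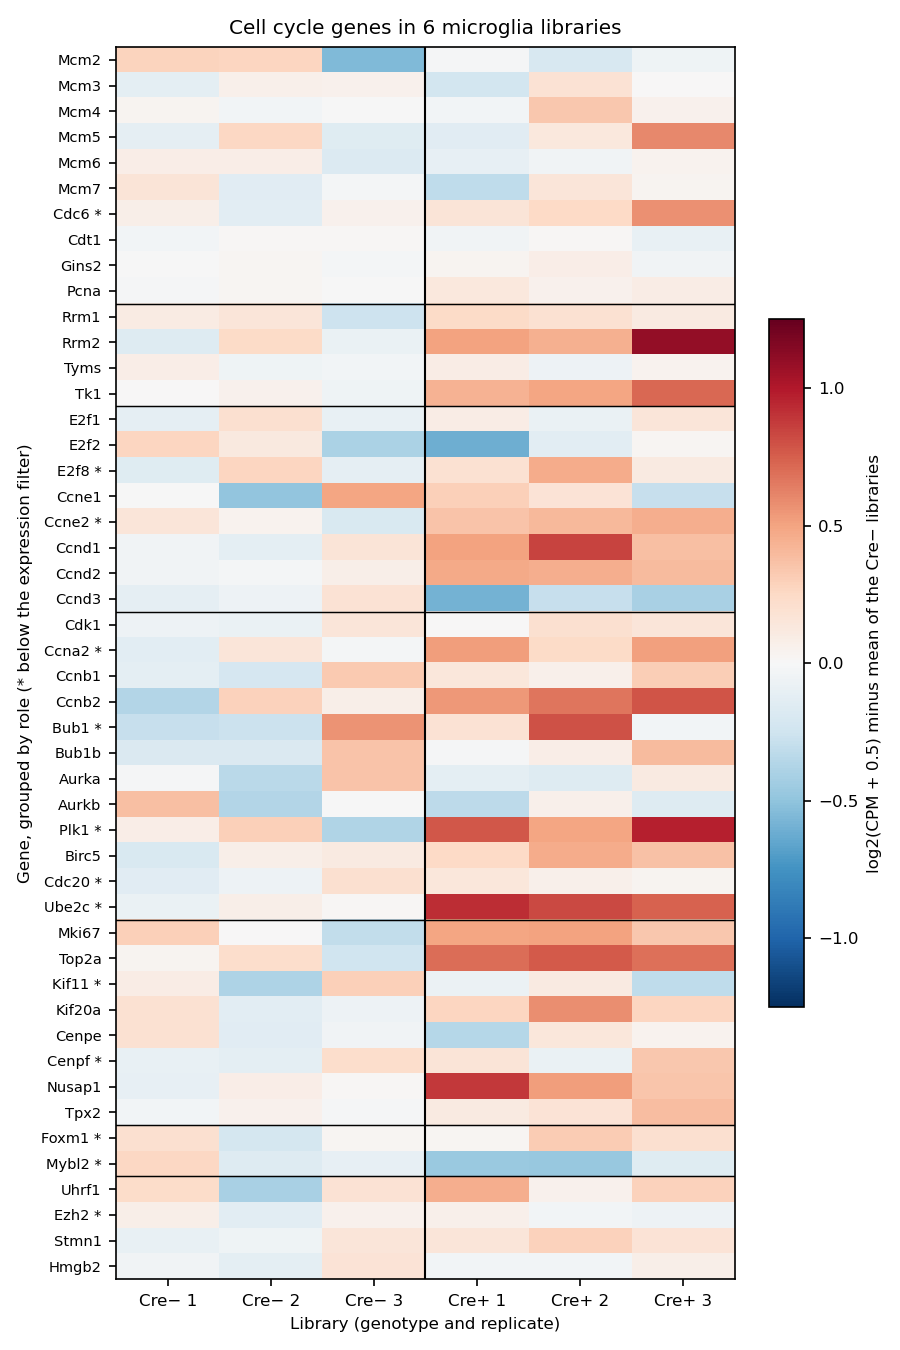
Level of each of the 48 genes in each library, as log2(CPM + 0.5) minus the mean of the 3 Cre- libraries (red higher, blue lower), with lines between role groups and an asterisk for genes below the expression filter. The Cre+ columns are red for Rrm2, Tk1, Ccnd1, Ccnd2, Ube2c and Top2a, pale for most helicase genes, and blue for Ccnd3 and Mybl2.

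The levels of these genes spread widely. Per length, Pcna stood at the 94.9th percentile of the tested genes (in RPKM, CPM per kilobase of gene length), E2f1 at the 71.1st and Mcm6 at the 70.2nd, whereas Top2a stood at the 8.66th and Mki67 at the 0.245th. The Mki67 counts were 101, 79 and 53 in Cre- and 154, 131 and 122 in Cre+. The S-phase genes had a median of 1.48 RPKM in Cre- and the mitotic genes 0.345 RPKM. The genes with log2 fold changes over 0.6 all lay below 5 RPKM.

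**Figure D2:**
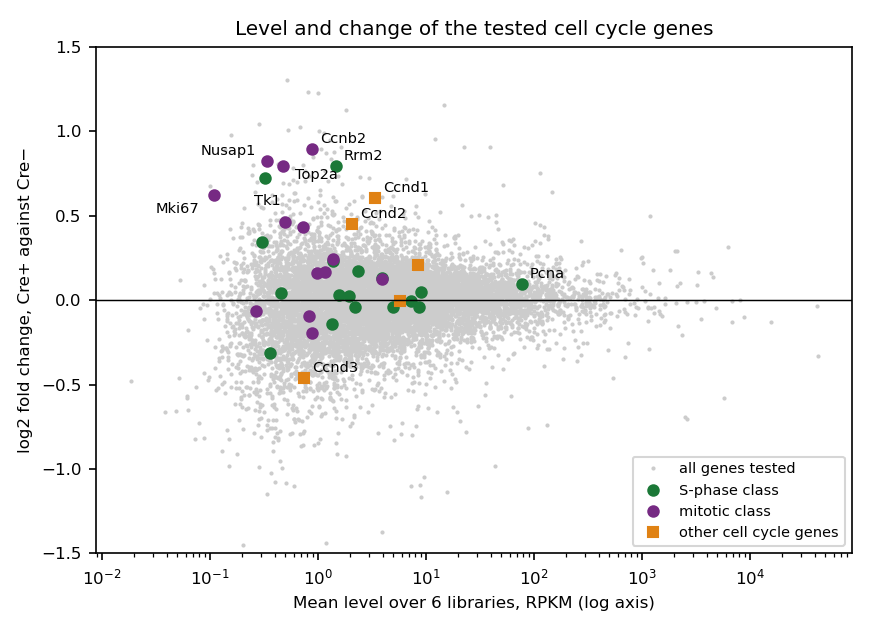
Log2 fold change of Cre+ against Cre- (vertical axis) against the mean RPKM over 6 libraries (log axis) for the 35 tested cell cycle genes, by class, over all 11429 tested genes in grey, of which 16 lie outside the plotted range of ±1.5. Pcna is the most abundant and lies near 0, and the largest differences are among genes of low level.

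The origin licensing and replication fork genes differed little between the groups. These are the 6 subunits of the MCM2-7 helicase, its loaders Cdc6 and Cdt1, the GINS subunit Gins2 and the clamp Pcna. None of the 9 tested was called, and their median log2 fold change was -0.01. Pcna was at 177, 181 and 178 CPM in Cre- and at 196, 185 and 190 CPM in Cre+. All 3 Cre+ libraries were above the Cre- libraries, by little, and the difference was not called (log2 fold change 0.09, SE 0.04, adjusted p = 0.269 by edgeR). All 6 MCM genes overlapped between the groups, with log2 fold changes from -0.14 (Mcm2) to 0.23 (Mcm5). Mcm6, whose promoter holds the E2F sites above, was at 43.2, 43.0 and 36.1 CPM in Cre- and at 37.7, 39.3 and 41.9 CPM in Cre+. Cre- culture 3 was the lowest of the 6 and the groups overlapped. Signs this close to 0 depend on the scaling. With the wider set, whose normalization moves the same genes by 0.04, 9 of the 10 genes had a log2 fold change above 0, against 4 of 9 in the main test. In GENCODE M21, Gins2 shares 2758 of its 4097 exonic bases with Gse1 on the other strand, which this unstranded kit does not separate. Pcna has a processed copy, Pcna-ps2, alike over 781 bases at 99.2% identity and counted at 7.20 CPM in Cre-.

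Of the nucleotide supply genes, Rrm2 rose in Cre+. It encodes the small, cell cycle regulated subunit of ribonucleotide reductase and lies at chr12:24708241-24714146 (plus strand). Rrm2 was at 2.58, 3.55 and 2.74 CPM in Cre- and at 4.35, 4.16 and 6.86 CPM in Cre+. The groups did not overlap, and Cre+ culture 3 was far above the rest. The log2 fold change was 0.79 (SE 0.20, n = 3 and 3, adjusted p = 0.0345 by edgeR). Leaving out Cre+ culture 3 (0.53, adjusted p = 0.189), Cre- culture 1 (0.70, adjusted p = 0.107) or Cre- culture 3 (0.74, adjusted p = 0.121) ended the call, as did limma's voomWithQualityWeights (0.74, adjusted p = 0.0522). Tk1, the thymidine kinase of S phase, was at 1.26, 1.32 and 1.20 CPM in Cre- and at 1.88, 1.98 and 2.40 CPM in Cre+. All 3 Cre+ libraries were higher, and the gene was just short of the threshold (log2 fold change 0.73, SE 0.20, adjusted p = 0.0545) and past it with the wider set (0.77, adjusted p = 0.0465). Rrm1, the large subunit, which is more stable over the cycle, was at 26.0, 26.7 and 20.1 CPM in Cre- and at 28.5, 27.5 and 26.0 CPM in Cre+. The groups overlapped (log2 fold change 0.17, adjusted p = 0.364). Tyms, which makes thymidylate, overlapped as well (0.03, adjusted p = 0.929).

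Among the G1/S regulators, the D-type cyclins differed in direction. Ccnd1 (chr7:144929931-144939925, minus strand) was at 12.3, 11.6 and 14.2 CPM in Cre- and at 18.1, 23.1 and 16.6 CPM in Cre+. No Cre+ library was as low as any Cre- library. Ccnd1 rose by a log2 fold change of 0.60 (SE 0.12, adjusted p = 0.00815 by edgeR). Ccnd2 (chr6:127125162-127152193, minus strand) was at 15.8, 16.1 and 17.2 CPM in Cre- and at 22.9, 22.6 and 21.7 CPM in Cre+. The libraries of each group lay close together and far from the other group, and Ccnd2 rose by 0.45 (SE 0.08, adjusted p = 0.00322). Both calls held under all 13 alternatives. Ccnd3, the third D-type cyclin, was at 6.95, 7.21 and 8.65 CPM in Cre- and at 4.87, 6.11 and 5.60 CPM in Cre+. All 3 Cre+ libraries were lower, without a call by edgeR (log2 fold change -0.46, SE 0.14, adjusted p = 0.0693), and with one by DESeq2 (-0.46, adjusted p = 0.0233).

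Per length, the D cyclin transcripts shifted in composition. The sum of the 3 was 5.08, 4.99 and 5.83 RPKM in Cre- and 6.84, 8.01 and 6.47 RPKM in Cre+, higher in every Cre+ library. The share of Ccnd3 in that sum was 15.6%, 16.5% and 16.9% in Cre- and 8.12%, 8.70% and 9.88% in Cre+. The share of Ccnd2 overlapped between the groups, from 31.4% to 34.3% in Cre- and from 29.9% to 35.6% in Cre+. Exons of Ccnd1 share 1100 of 4709 bases with LTO1 on the other strand. LTO1 was at 36.3, 35.2 and 32.4 CPM in Cre- and at 37.9, 37.3 and 41.5 CPM in Cre+ (log2 fold change 0.17, adjusted p = 0.200), and reads in the shared bases cannot be told apart. Ccnd3 shares 361 of 8775 bases with Bysl in the same way.

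The E2F and cyclin E genes gave no call. E2f1, an activator of S-phase genes, was at 25.6, 31.9 and 26.0 CPM in Cre- and at 29.5, 26.1 and 30.7 CPM in Cre+. The groups overlapped throughout (log2 fold change 0.05, SE 0.09, adjusted p = 0.836). E2f2 (-0.31, adjusted p = 0.579) and Ccne1 (0.04, adjusted p = 0.970) overlapped too. Ccne2, below the filter, was at 0.667, 0.585 and 0.425 CPM in Cre- and at 0.849, 0.892 and 0.942 CPM in Cre+, and was not called in the wider set (0.72, adjusted p = 0.178). It shares 609 of its 3495 exonic bases with Ints8 on the other strand, counted at means of 3.20 CPM (Cre-) and 2.92 CPM (Cre+).

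**Figure D3:**
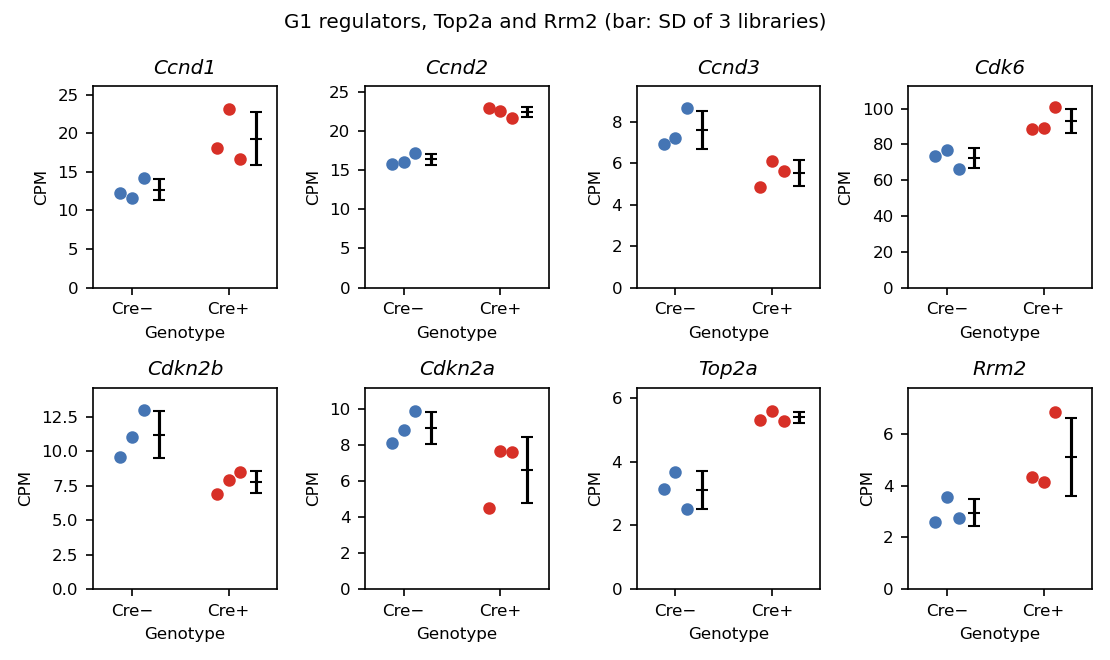
CPM in each library for 3 D cyclins, the kinase Cdk6, the inhibitors Cdkn2b and Cdkn2a, and Top2a and Rrm2 (points: the 3 libraries of each genotype, bar: mean ± SD). The Cre+ points lie above all Cre- points for Ccnd1, Ccnd2, Cdk6, Top2a and Rrm2 and below them for Ccnd3, Cdkn2b and Cdkn2a.

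Of the spindle and chromosome structure genes, Top2a rose in Cre+. It encodes topoisomerase IIα, which untangles sister chromatids, and lies at chr11:98992943-99024189 (GRCm38, minus strand). Top2a was at 3.15, 3.67 and 2.50 CPM in Cre- and at 5.31, 5.60 and 5.28 CPM in Cre+. The Cre+ libraries were close to each other and above all Cre- libraries. The log2 fold change was 0.79 (SE 0.16, adjusted p = 0.00956 by edgeR), and the call held under all 13 alternatives, with log2 fold changes from 0.66 to 0.93 when 1 library was left out. Mki67, the gene of the proliferation marker Ki-67, was at 1.16, 0.855 and 0.592 CPM in Cre- and at 1.41, 1.41 and 1.21 CPM in Cre+. Its groups did not overlap, and it was not called (0.63, SE 0.25, adjusted p = 0.187). Tpx2, which activates Aurora A on the spindle, was at 5.73, 6.15 and 5.82 CPM in Cre- and at 6.41, 6.68 and 7.89 CPM in Cre+. It too was higher in every Cre+ library without a call (0.24, adjusted p = 0.322). In all, 5 of the 6 tested genes of this group were higher in every Cre+ library (83.3%, against 12.3% of all genes). Mki67 and Nusap1 passed the filter with 4 libraries only, so this share depends on it. Over all genes of the group it was 5 of 8 (62.5%, against 8.44% of the wider set). The other 2 of these 5 were Nusap1, a microtubule-binding protein (0.82, SE 0.23, adjusted p = 0.0557), and the kinesin Kif20a (0.43, adjusted p = 0.200). The kinesin Cenpe overlapped (-0.06, adjusted p = 0.918), as did Kif11 and Cenpf below the filter. Kif20a shares 1271 of its 4338 exonic bases with Cdc23 on the other strand.

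The mitotic kinases, cyclins and checkpoint genes gave no call in the main test. Ccnb2, a B-type cyclin, had the smallest p and was at 0.598, 1.23 and 0.995 CPM in Cre- and at 1.57, 1.75 and 1.94 CPM in Cre+. All 3 Cre+ libraries were above all Cre- libraries (log2 fold change 0.89, SE 0.26, adjusted p = 0.0581). Without Cre- culture 2 the log2 fold change was 1.14 and the adjusted p 0.0359, and with the replicate number as a block they were 0.94 and 0.0478. Cdk1, the main mitotic kinase and the most abundant of this group in CPM, was at 17.6, 17.3 and 20.4 CPM in Cre- and at 18.5, 21.2 and 20.5 CPM in Cre+. The groups overlapped (0.12, SE 0.09, adjusted p = 0.512). Ccnb1, the other B-type cyclin, overlapped (0.17, adjusted p = 0.643), as did the checkpoint kinase Bub1b (0.16, adjusted p = 0.714) and both Aurora kinases, Aurka (-0.10, adjusted p = 0.878) and Aurkb (-0.20, adjusted p = 0.703). Birc5, the survivin of the chromosomal passenger complex, was higher in every Cre+ library without a call (0.46, adjusted p = 0.241).

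Ube2c and Plk1 did not pass the filter, with 3 and 2 libraries above 1 CPM. Ube2c, the ubiquitin-conjugating enzyme of the anaphase-promoting complex, was at 0.667, 0.801 and 0.749 CPM in Cre- and at 1.85, 1.69 and 1.56 CPM in Cre+, with counts of 58, 74 and 67 against 203, 157 and 157. The Cre+ libraries all lay above the Cre- libraries, and the gene was called in the wider set (log2 fold change 1.24, SE 0.23, adjusted p = 0.00778 by edgeR). Since the filter required 1 CPM in 4 libraries, a gene above it in Cre+ alone was not tested. Plk1, a kinase of mitotic entry, was at 0.529, 0.693 and 0.246 CPM in Cre- and at 1.16, 0.870 and 1.40 CPM in Cre+, higher in every Cre+ library and not called in the wider set (1.26, adjusted p = 0.0578). Ccna2, cyclin A, was at 0.172, 0.314 and 0.224 CPM against 0.557, 0.365 and 0.546 CPM (1.08, adjusted p = 0.161). It shares 510 of its 4083 exonic bases with Exosc9 on the other strand. Bub1 and Cdc20 overlapped. Of the 2 mitotic transcription factors, Foxm1 was at 0.517, 0.260 and 0.402 CPM in Cre- and at 0.401, 0.602 and 0.516 CPM in Cre+, and not called in the wider set (0.41, adjusted p = 0.599). Mybl2 was at 0.598, 0.325 and 0.358 CPM in Cre- and at 0.164, 0.161 and 0.327 CPM in Cre+. Both overlapped between the groups, for Mybl2 by 1 Cre+ library. Mybl2 had the lowest log2 fold change of the 48 in the wider set (-0.92, SE 0.48, adjusted p = 0.292), on counts of 52, 30 and 32 against 18, 15 and 33.

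**Figure D4:**
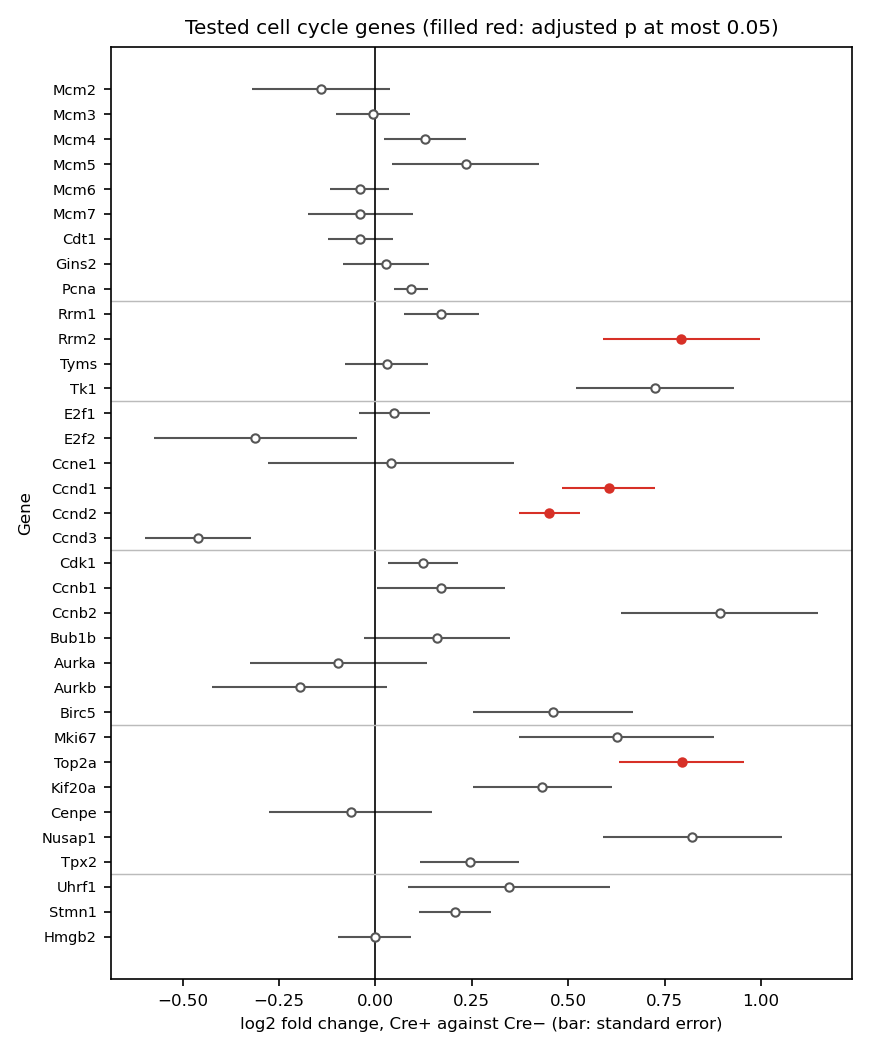
Log2 fold change of Cre+ against Cre- with its standard error for the 35 tested genes, by role group. Filled red points are the 4 genes called (Rrm2, Ccnd1, Ccnd2 and Top2a), all above 0, and Ccnd3 is the lowest at -0.46.

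The chromatin and cytoskeleton genes had no call. Stmn1, a microtubule destabilizer, was at 14.1, 14.5 and 16.8 CPM in Cre- and at 16.8, 18.6 and 17.0 CPM in Cre+. The highest Cre- library came close to the lowest Cre+ library, without overlap (log2 fold change 0.21, adjusted p = 0.242). A copy of Stmn1, Gm11223, is alike over 450 bases at 99.8% identity and was counted at means of 3.17 CPM (Cre-) and 4.23 CPM (Cre+). Hmgb2, a chromatin protein, was at 16.6, 15.7 and 19.3 CPM in Cre- and at 16.7, 16.7 and 18.1 CPM in Cre+. Its groups overlapped and its log2 fold change was -0.00 (adjusted p = 0.995). Uhrf1, which maintains DNA methylation, overlapped (0.35, adjusted p = 0.528), and so did Ezh2.

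Within each library, the 20 S-phase genes were set against the 21 mitotic genes as the mean of log2(CPM + 0.5). The S-phase genes are the 10 of licensing and fork, the 4 of nucleotide supply, Uhrf1, Ccne1, Ccne2, E2f1, E2f2 and E2f8. The mitotic genes are the 12 kinases, cyclins and checkpoint genes, the 8 of spindle and chromosome structure, and Foxm1. Mybl2, the D cyclins, Ezh2, Stmn1 and Hmgb2 are in neither. The S-phase mean was 2.79, 2.78 and 2.69 in Cre- and 2.83, 2.90 and 2.95 in Cre+. The mitotic mean was 1.00, 0.96 and 1.10 in Cre- and 1.27, 1.34 and 1.33 in Cre+. Both means were higher in every Cre+ library, by 0.14 and 0.29. The S-phase mean minus the mitotic mean was 1.79, 1.82 and 1.59 in Cre- and 1.56, 1.56 and 1.62 in Cre+. These differences overlapped, since Cre- culture 3 lay below Cre+ culture 3. The group means differed by -0.16, with a pooled SD of 0.093 over libraries, and by -0.13 with Mybl2 counted among the mitotic genes. Of the mitotic genes, 10 of 21 were higher in every Cre+ library (47.6%), and of the S-phase genes 5 of 20 (25.0%), against 8.44% of the wider set, and whether the classes differ was not tested. The classes were given no p-value, since their genes were chosen with results of these data known.

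**Figure D5:**
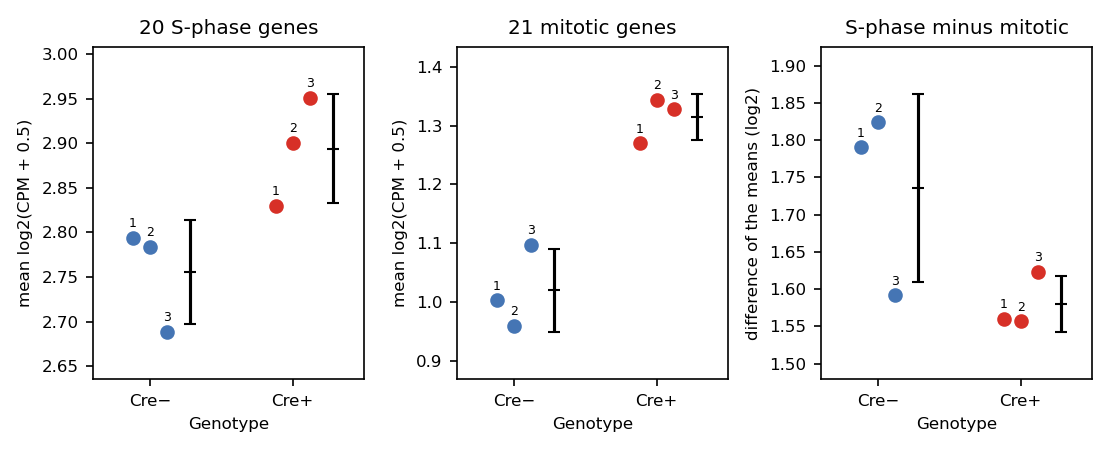
Mean log2(CPM + 0.5) of 20 S-phase genes (left) and 21 mitotic genes (middle) and their difference (right) in each library, numbered by replicate, with mean ± SD (n = 3). The Cre+ libraries lie above the Cre- libraries in both classes, and the difference of Cre- culture 3 (1.59) falls among the Cre+ values.

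Further genes of the same pathways were read from longer lists. Of 30 other S-phase genes, 22 were tested and 0 were called by edgeR. At an unadjusted p under 0.05, 0 were higher and 3 lower (13.6%, against 9.46%), and the median log2 fold change was 0.01. Rfc2, a clamp loader subunit and the most abundant of them, was at 52.3, 50.9 and 51.2 CPM in Cre- and at 41.8, 47.8 and 44.9 CPM in Cre+, lower in every Cre+ library without a call (-0.20, adjusted p = 0.0853). Of 38 other G2/M genes, 27 were tested, and 22 had a log2 fold change above 0 (81.5%, against 50.6% of all tested genes). At an unadjusted p under 0.05, 9 were higher (33.3%, against 9.69%) and 0 lower. In the wider set, 12 of the 38 were higher in every Cre+ library (31.6%, against 8.44%) and 1 was lower (2.63%, against 17.1%). There, 4 of the 38 were called higher (10.5%, against 1.99%). After adjustment in the main test, 1 rose (3.70%, near the 2.50% of all tested genes). That gene was Gas2l3, which links microtubules and actin in dividing cells, at 82.9, 76.7 and 80.7 CPM in Cre- and at 91.5, 95.6 and 102 CPM in Cre+. The Cre+ libraries were all higher (0.27, SE 0.06, adjusted p = 0.0112), and leaving out Cre- culture 2 (0.23, adjusted p = 0.0562) or Cre+ culture 3 (0.22, adjusted p = 0.0655) ended the call. Jpt1, the most abundant, was at 191, 194 and 196 CPM in Cre- and at 205, 197 and 213 CPM in Cre+ (0.08, adjusted p = 0.357).

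Of the kinases that pair with D cyclins, Cdk6 rose and Cdk4 was not called. Cdk6, a kinase that they activate, was at 73.8, 76.9 and 66.2 CPM in Cre- and at 88.7, 89.5 and 101 CPM in Cre+. The groups did not overlap, and Cdk6 rose by 0.36 (SE 0.07, adjusted p = 0.00435 by edgeR), with the call held under all 13 alternatives. It was the 1 called of 8 tested genes among 10 other CDKs, CDC25 and WEE kinases (12.5%, against 2.50%). Cdk4, the other D cyclin kinase and the most abundant of the list, was at 125, 120 and 133 CPM in Cre- and at 132, 127 and 135 CPM in Cre+, which overlapped (0.06, adjusted p = 0.583). Of 10 CDK inhibitors and pocket proteins, 9 were tested, and 1 fell (11.1%, against 2.56% of all tested genes). Cdkn2b, the p15 inhibitor of CDK4 and CDK6, was at 9.61, 11.1 and 13.0 CPM in Cre- and at 6.92, 7.93 and 8.49 CPM in Cre+. All Cre+ libraries were lower (-0.53, SE 0.13, adjusted p = 0.0276). Leaving out Cre- culture 2 (-0.54, adjusted p = 0.0573), Cre- culture 3 (-0.41, adjusted p = 0.131), Cre+ culture 1 (-0.45, adjusted p = 0.107) or Cre+ culture 2 (-0.54, adjusted p = 0.0727) ended the call. Its neighbour Cdkn2a, chosen after the values were seen, was at 8.13, 8.84 and 9.89 CPM in Cre- and at 4.48, 7.67 and 7.61 CPM in Cre+, lower in every Cre+ library without a call (-0.45, adjusted p = 0.167). Cdkn1a, the p21 inhibitor and the most abundant of the list, was at 103, 103 and 107 CPM in Cre- and at 94.3, 112 and 113 CPM in Cre+, which overlapped (0.03, adjusted p = 0.872).

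Of 7 other E2F and DP factors, 6 were tested and 0 were called by edgeR. At an unadjusted p under 0.05, 1 of the 6 was lower, against 9.46% of all tested genes. Tfdp1, the DP partner of the E2Fs, was at 14.4, 14.3 and 16.1 CPM in Cre- and at 16.6, 14.0 and 17.8 CPM in Cre+, which overlapped (0.12, adjusted p = 0.593). Of 10 p53-responsive arrest genes, all tested, 2 rose, against 2.50% of all tested genes. Plk2 was at 338, 385 and 338 CPM in Cre- and at 472, 412 and 431 CPM in Cre+, higher in every Cre+ library (0.31, SE 0.06, adjusted p = 0.00562), and its call held under all 13 alternatives. Mdm2, the ubiquitin ligase of p53, was at 101, 109 and 99.1 CPM in Cre- and at 119, 114 and 123 CPM in Cre+ (0.20, SE 0.05, adjusted p = 0.0393). Its groups did not overlap, and its call held without Cre- culture 2 and was lost without any 1 of the other 5 libraries (adjusted p = 0.0508 to 0.155) and with the replicate block (adjusted p = 0.0858).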

How the data were processed

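RNA of 6 microglia cultures (3 Cre-, 3 Cre+) was sequenced by the authors as paired-end reads from an unstranded low-input kit. The counts, as deposited, are whole reads per Ensembl gene made by the authors on GRCm38. The submitters' processing notes name STAR 2.7.9a and featureCounts 2.0.3, and the methods of the study name older releases. The CPM as deposited by the authors are counts per library total, and the FPKM as deposited are CPM per kilobase. Both served only to check the counts. Values in CPM here use TMM-scaled library sizes.

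Genes were named with GENCODE M21 (55227 of 55487 matched by identifier). After removal of 356 rRNA genes, those exceeding 1 CPM in 4 or more libraries were fitted with edgeR 4.0.16 in R 4.3.3 (TMM, quasi-likelihood test, no covariates, threshold 0.05). Alternatives were library totals, DESeq2 size factors, DESeq2 1.42.0, limma 3.58.1 voomWithQualityWeights, other filters, the replicate block and leaving out each library. The alternative with Mybl2 among the mitotic genes was added after the data were seen. Similar transcripts were sought with blastn at 95% identity or more over at least 100 bases. Promoters came from RefSeq (GRCm38.p6). The genes and lists were chosen with earlier results of these data known. Values per library are given for called members, for the member of each role group with the smallest p and the one with the highest mean CPM, for Mki67, the D cyclins and Nr1d1, and, in each further list, for called genes and the most abundant gene. Values of other members below these limits were added after they were seen. Nothing in the labels says that cultures came from separate litters, so differences between libraries may be in part technical.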

Additional observations from a re-analysis of the deposited data

How the results depend on the processing

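Ccnd1, Ccnd2 and Top2a were called under all 13 alternatives. Without a filter on low counts, 9 of the 48 genes were called, all higher, and 41 had a log2 fold change above 0. With filterByExpr 40 of 48 were above 0. Both settings tested 48 genes in place of 35, and without a filter the median of all genes lay at -0.20. Over all genes, 886 were called by DESeq2 and 1528 without a filter, against 579, and leaving out 1 library gave between 317 and 448. The cause of the DESeq2 difference was not tested. Leaving out 1 library gave between 3 and 5 called genes of the 48. The S-phase minus mitotic difference ran from -0.23 to -0.11 when 1 library was left out, and was -0.08 with a pseudocount of 2 CPM. With Mybl2 added to the mitotic genes, an alternative chosen after seeing the data, it was -0.13. For single genes among the 35, 8 values moved past the threshold and 4 (all of Rrm2) moved out of it.

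None of the 4 called genes changed direction under any alternative. Among the genes without a call, 13 changed sign under at least 1 alternative, and none of these values was called. With filterByExpr the log2 fold changes that turned were 0.036 for Mcm3, 0.0019 for Mcm6, 0.0049 for Mcm7, 0.0029 for Cdt1 and 0.041 for Hmgb2, and without a filter 0.071 for Mcm3, 0.038 for Mcm6, 0.041 for Mcm7, 0.038 for Cdt1, 0.017 for Cenpe and 0.077 for Hmgb2. Hmgb2 also turned with library totals (0.0030), with voomWithQualityWeights (0.0052) and with the replicate block (0.0020). Leaving out 1 library gave -0.11 to 0.10 for Mcm3, -0.014 to 0.40 for Mcm5, -0.15 to 0.093 for Mcm7, -0.0038 to 0.063 for Gins2, -0.0074 to 0.073 for Tyms, -0.016 to 0.16 for E2f1, -0.25 to 0.46 for Ccne1, -0.28 to 0.15 for Aurka, -0.39 to 0.042 for Aurkb, -0.19 to 0.10 for Cenpe and -0.065 to 0.088 for Hmgb2. The median log2 fold change of the 11429 genes moved up by 0.04 with filterByExpr and by 0.08 without a filter. The cause of the changes of sign was not tested.

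The replicate numbers do not mark a shared litter in the labels, and the deviations of same-numbered libraries had correlations of 0.01, -0.02 and -0.04, so they were not treated as pairs. With the replicate block, 430 genes and 5 of the 35 were called, the additional gene being Ccnb2, and 25 of the 35 were above 0.

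Depth limits the genes of low level. Mki67 rests on 53 to 154 counts a library and Plk1 on 22 to 141, and their standard errors on the log2 scale are several times that of Pcna. In the main test the standard errors were 0.25 for Mki67 and 0.04 for Pcna. In the wider set they were 0.36 for Plk1 and 0.05 for Pcna. The counts do not show which cells the transcripts came from.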
